A study of Homo sapiens
Mus musculus and Homo sapiens with 2 samples.

Results

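The first response of A549 cells to dexamethasone was read from 2340 single cells, 1189 treated for 2 h and 1151 at 0 h, out of 7404 A549 cells and 13711 cells in the whole series. A549 is a human lung adenocarcinoma line, and dexamethasone is a synthetic glucocorticoid that binds the glucocorticoid receptor. The cells were chosen by the treatment time that the deposited annotation gives each cell, with no use of measured values. The dose was 100 nM by the protocol, although the sample's own treatment label says 101 nM, and control cells had an equal volume of ethanol. Both cultures had 200 µM 4-thiouridine (S4U) for the last 2 h before harvest, so in treated cells the label and the drug covered the same 2 h. S4U is a uridine analog that enters RNA as it is made, and iodoacetamide treatment of the fixed cells makes it read as a base change, by which the authors called a molecule new. The library was built on polyadenylated RNA with the single-cell method sci-fate. There was 1 culture a side as far as the labels show, so no p-value is given, and every interval covers counting error only.

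The glucocorticoid receptor, encoded by NR3C1, waits in the cytoplasm bound to chaperones. Once it binds a steroid it enters the nucleus, where it binds DNA and switches on genes directly. Best known among these targets are inhibitors of inflammatory and MAP kinase signalling, metabolic genes and, in lung epithelium, genes of sodium transport. The receptor also lowers transcription driven by AP-1 and NF-kappaB, the transcription factors behind many cytokine genes, without always binding DNA itself. A short treatment leaves less time for indirect changes, but direct and indirect changes were not told apart here.

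Treated cells held 35724716 whole counts, of which 7257127 were new, and cells at 0 h held 33530002 whole and 6994019 new counts. The new share was 20.31% at 2 h (exact 95% interval 20.30 to 20.33) and 20.86% at 0 h (20.85 to 20.87). The median cell had 28193 whole and 5484 new counts at 2 h, against 26628 whole and 5442 new counts at 0 h. Among exonic counts, 11.9% were new at 2 h and 13.1% at 0 h, and among intronic counts 66.4% were new at 2 h and 65.7% at 0 h. Markers of the line stood alike. The 13 epithelial and A549 markers, among them keratins and the aldo-keto reductases that this line expresses at high levels, summed to 26771 counts per 1000000 (CPM) of whole RNA at 2 h and 26694 CPM at 0 h, and none of the 12 with enough new counts or the 13 with enough whole counts was past 2-fold. The 7 fibroblast markers summed to 12.2 CPM at 2 h and 11.8 CPM at 0 h, the 7 leukocyte markers to 13.5 CPM at 2 h and 14.0 CPM at 0 h, and 4 endothelial markers to 1.71 CPM at 2 h and 2.03 CPM at 0 h.

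A gene's level is given in CPM of the same kind of RNA in its culture, and a fold is the level at 2 h over that at 0 h with an exact 95% interval. Genes with at least 50 counts in both cultures together were compared, and a gene is called past 2-fold when its level at 2 h was at least 2-fold higher or lower. Of 12967 genes compared in new RNA, 384 were past 2-fold higher (2.96%) and 232 past 2-fold lower (1.79%). In whole RNA, 222 of 16785 genes were higher (1.32%) and 108 lower (0.643%). Pre-existing RNA, the whole counts minus the new ones, had 85 of 15143 genes higher (0.561%) and 59 lower (0.390%). The median log2 fold of all genes compared was -0.08 in new, -0.02 in whole and -0.01 in pre-existing RNA. Sets of genes below are read against these shares and medians. Their members were chosen with earlier results of these data known, so their shares past 2-fold are descriptions and not independent support.

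The receptor's own transcript was lower at 2 h. NR3C1 had 947 CPM of new RNA at 2 h and 1296 CPM at 0 h, a fold of 0.731 (0.708 to 0.754), and in pre-existing RNA it had 214 CPM at 2 h and 229 CPM at 0 h, a fold of 0.934 (0.901 to 0.968). Of 18 genes for the receptor, its relative, chaperones and cofactors compared in new RNA, 1 was past 2-fold higher (2.96% of all genes) and none lower (1.79% of all genes), with a median log2 fold of -0.19. That 1 gene was FKBP5, a cochaperone that holds the receptor in a state of low affinity for steroid. FKBP5 had 768 CPM of new RNA at 2 h and 65.3 CPM at 0 h, a fold of 11.8 (10.7 to 13.0).

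Inhibitors of signalling, listed with some genes of other roles, were the group of textbook targets with the most members past 2-fold. Metabolic and secreted products, given below, had a higher median in new RNA. Of 16 genes of the signalling list compared in new RNA, 12 were past 2-fold higher and none lower, with a median log2 fold of 1.49. In whole RNA 13 of 20 were higher (1.32% of all genes) and none lower (0.643% of all genes), and their median was 1.35. TSC22D3 encodes GILZ, a leucine zipper protein that blunts NF-kappaB and AP-1, and it had 177 CPM of new RNA at 2 h against 8.29 CPM at 0 h, a fold of 21.3 (16.4 to 28.2). DUSP1, the phosphatase that switches off p38 and JNK, had 493 CPM at 2 h and 169 CPM at 0 h, a fold of 2.92 (2.73 to 3.12). DUSP1 was thus already well expressed at 0 h, unlike TSC22D3. ERRFI1, an inhibitor of the EGF receptor, had 1431 CPM at 2 h and 353 CPM at 0 h, a fold of 4.05 (3.88 to 4.23). NFKBIA, which encodes the inhibitor that keeps NF-kappaB in the cytoplasm, had 412 CPM at 2 h and 152 CPM at 0 h, a fold of 2.72 (2.53 to 2.91). Fewer counts stood behind IRAK3, an inhibitor of Toll-like receptor signalling, with 54 new counts at 2 h and 4 at 0 h, a fold of 13.0 (4.80 to 49.5). The others past 2-fold were ZFP36, TNFAIP3, SGK1, RGS2, IRS2 and SPRY1, with folds between 2.08 for SGK1 and 5.06 for SPRY1. Of these, SGK1, a kinase, and IRS2, an adaptor of the insulin receptor, are not inhibitors. CDKN1C and SOCS1, an inhibitor of cyclin-dependent kinases and an inhibitor of cytokine receptor signalling, had fewer than 50 new counts and were past 2-fold in whole RNA. CDKN1C had 69 whole counts at 2 h and 14 at 0 h, a fold of 4.63 (2.58 to 8.90), and SOCS1 had 51 at 2 h and 5 at 0 h, a fold of 9.57 (3.85 to 30.7).

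Transcription regulators known as glucocorticoid targets moved mostly the same way. Of 15 compared in new RNA, 10 were past 2-fold higher and 2 lower, with a median log2 fold of 1.39, and in whole RNA 10 of 16 were higher and none lower. TFCP2L1, a grainyhead-family factor, had 107 CPM of new RNA at 2 h and 8.86 CPM at 0 h, a fold of 12.0 (9.29 to 15.9). PER1, a repressor in the circadian clock, had 100 CPM at 2 h and 10.0 CPM at 0 h, a fold of 10.0 (7.85 to 13.0). KLF9, a zinc finger factor induced by steroid and thyroid hormones, had 60.6 CPM at 2 h and 14.2 CPM at 0 h, a fold of 4.28 (3.44 to 5.38). BCL6, KLF4, FOXO3, CEBPB, CEBPD, KLF6 and PER2 had folds between 2.16 for PER2 and 4.47 for BCL6. The 2 lower members were HEY1, a Notch target, and BCL3, a nuclear partner of NF-kappaB. HEY1 had 15 new counts at 2 h and 36 at 0 h, a fold of 0.402 (0.204 to 0.752), and BCL3 had 51.7 CPM at 2 h and 116 CPM at 0 h, a fold of 0.446 (0.394 to 0.505). In pre-existing RNA the log2 fold of HEY1 was 0.61, on the other side of 0, and that of BCL3 was -0.45. ZBTB16, a zinc finger factor known from other cells as a strong glucocorticoid target, had 9 new counts at 2 h and 3 at 0 h, too few to compare. Clock genes as a set did not move one way. Of 16 compared, 3 were higher (PER1, PER2 and NR1D2) and 2 lower (DBP and BHLHE40), with a median log2 fold of -0.08, the same as that of all genes. BHLHE40, a repressor in the clock that also answers to stress, had 38.6 CPM of new RNA at 2 h and 140 CPM at 0 h, a fold of 0.276 (0.241 to 0.316).

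Metabolic and secreted products included large folds. Of 13 compared in new RNA, 10 were past 2-fold higher and none lower, with a median log2 fold of 1.65, whereas 7 of 17 were higher and none lower in whole RNA (median 0.46). FGD4, an exchange factor for the GTPase CDC42, had 1067 CPM of new RNA at 2 h and 63.6 CPM at 0 h, a fold of 16.8 (15.2 to 18.5), and 6.51 new counts per treated cell against 0.387 per cell at 0 h. CIDEC, a lipid droplet protein, had 63.8 CPM at 2 h and 2.72 CPM at 0 h, a fold of 23.5 (14.9 to 39.4). ANGPTL4, a secreted inhibitor of lipoprotein lipase, had 245 CPM at 2 h and 25.2 CPM at 0 h, a fold of 9.74 (8.34 to 11.4). These 3 genes act on the cytoskeleton or on fat storage and use, and they were past 2-fold in new, whole and pre-existing RNA alike. PDK4, a kinase that turns off pyruvate dehydrogenase, had 349 CPM at 2 h and 63.2 CPM at 0 h, a fold of 5.52 (4.99 to 6.12). SLC19A2, a thiamine transporter, had a fold of 3.87, ACSL1, an acyl-CoA synthetase, of 2.63, GLUL, glutamine synthetase, of 2.09, and CRISPLD2, a secreted protein, of 2.03. MT2A, a metal-binding metallothionein, had 202 CPM of new RNA at 2 h and 26.7 CPM at 0 h, a fold of 7.56 (6.49 to 8.85), but 152 CPM of whole RNA at 2 h and 116 CPM at 0 h, a fold of 1.31 (1.25 to 1.36). MT1X had a fold of 3.13 in new and 1.16 in whole RNA, and metallothionein genes are so alike that reads may have been split between copies.

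Sodium transport genes were mostly higher in new RNA and less so in whole RNA. Of 9 genes for ion and water transport compared, 6 were past 2-fold higher in new RNA (median log2 fold 1.47) and 2 in whole RNA (median 0.41), and none was past 2-fold lower in either. All 3 subunits of the epithelial sodium channel were among them. SCNN1G, the gamma subunit, had 55 new counts at 2 h and 3 at 0 h, a fold of 17.7 (5.74 to 88.3). SCNN1B, the beta subunit, had 74 at 2 h and 8 at 0 h, a fold of 8.91 (4.30 to 21.4), and of 13.7 with equal weight for each cell. SCNN1A, the alpha subunit, had 121 at 2 h and 28 at 0 h, a fold of 4.16 (2.74 to 6.53). SGK1, the kinase that keeps the sodium channel at the surface, and AQP3, a water and glycerol channel, had folds of 2.08 and 2.78 in new RNA. ATP1B1, a sodium pump gene, went the other way, with a fold of 0.715 in new RNA.

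Prostaglandin and cAMP signalling genes split, with 4 of 16 past 2-fold higher and 2 lower in new RNA and a median log2 fold of 0.04. PTGER4, a receptor for prostaglandin E2, had 47.0 CPM of new RNA at 2 h and 3.43 CPM at 0 h, a fold of 13.7 (9.05 to 21.7). ARRB1, an arrestin that silences G protein-coupled receptors, had 190 CPM at 2 h and 15.7 CPM at 0 h, a fold of 12.1 (9.95 to 14.8). HPGD, which breaks prostaglandins down, had a fold of 3.43 (3.09 to 3.81), and PTGES, a prostaglandin E synthase, had 49 new counts at 2 h and 7 at 0 h, a fold of 6.75 (3.04 to 17.7). The 2 lower genes were PTGS2, the inducible cyclooxygenase, and PDE1C, a phosphodiesterase of cyclic nucleotides, with folds of 0.472 (0.398 to 0.557) and 0.446 (0.408 to 0.486). With equal weight for each cell the fold of PTGS2 was 0.261.

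Genes with very few counts at 0 h gave high folds with wide intervals. SLC16A12, a monocarboxylate transporter, had 182 new counts at 2 h and 2 at 0 h, a fold of 87.7 (23.9 to 730). STAC2, an adaptor of calcium channels, had 49 at 2 h and 1 at 0 h, a fold of 47.2 (8.09 to 1903). EDN3, an endothelin peptide, had 76 at 2 h and 2 at 0 h, a fold of 36.6 (9.80 to 308). RASD1, a small GTPase named for its induction by dexamethasone, had 77 at 2 h and 3 at 0 h, a fold of 24.7 (8.15 to 123). The 0 h levels of these 4 genes rest on at most 3 counts each. Without the primer index, the cell tag described below, that held most of its counts in each culture, STAC2 had no count left at 0 h and was at least 14.1-fold higher against a floor of 3 counts, and the folds of SLC16A12, EDN3 and RASD1 were larger than with it. With so few counts at 0 h, taking 1 index away leaves even fewer there, so these larger folds are no check on the main ones. CKB, the brain-type creatine kinase, ETNK2, an ethanolamine kinase, JPH2, a junctophilin, FAM105A, and S100P, a calcium-binding protein, had folds between 9.64 for S100P and 18.3 for ETNK2. POU5F1, which has several near-identical pseudogenes and is therefore uncertain, had 292 new counts at 2 h and 27 at 0 h, a fold of 10.4 (7.02 to 16.1). Its noncoding neighbour PSORS1C3 was past 2-fold higher too, with 102 new counts at 2 h and 21 at 0 h, a fold of 4.68 (2.91 to 7.89). The other noncoding genes chosen, for the highest lower bounds of the fold, were OR7E14P, ANKRD44-IT1, RP11-59N23.3 and AC005077.12, with folds of 7.15, 4.75, 4.46 and 4.20. OR7E14P is an olfactory receptor pseudogene of a large family and ANKRD44-IT1 lies within an intron of ANKRD44, so both may share reads with other genes.

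**Figure D1:**
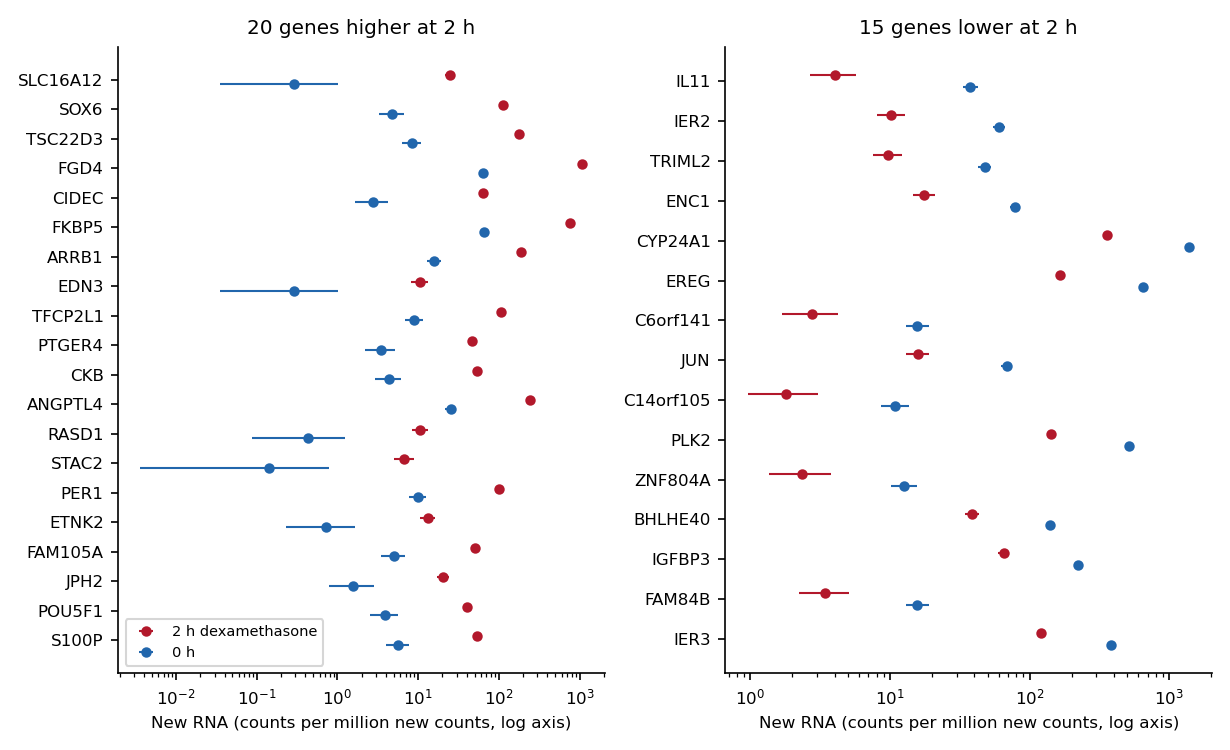
New RNA of the 20 protein-coding genes with the highest lower bound (left) and the 15 with the lowest upper bound (right) of the fold, in CPM on a log axis; red points are the 2 h culture, blue points the 0 h culture, and lines are exact 95% counting intervals. FGD4 sat at 1067 CPM at 2 h against 63.6 CPM at 0 h, and CYP24A1 at 356 CPM at 2 h against 1374 CPM at 0 h; the bar of SLC16A12 at 0 h, which rests on 2 counts, is wide, and the points of SOX6 at 2 h and ZNF804A at 0 h rest mostly on cells of 1 primer index.

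Inflammatory products were lower at 2 h. Of 11 cytokine, chemokine and related genes compared in new RNA, 8 were past 2-fold lower and none higher, with a median log2 fold of -1.26, and the member nearest to 0 had -0.63. In whole RNA 6 of 12 were past 2-fold lower and none higher, and their median was -0.95. IL11, a cytokine of the interleukin-6 family, had 4.00 CPM of new RNA at 2 h and 37.5 CPM at 0 h, a fold of 0.107 (0.0701 to 0.157). CXCL1, a chemokine for neutrophils, had 9 new counts at 2 h and 44 at 0 h, a fold of 0.197 (0.0846 to 0.409), and of 0.129 with equal weight for each cell. CCL2, a chemokine for monocytes, had 30.2 CPM at 2 h and 72.2 CPM at 0 h, a fold of 0.418 (0.355 to 0.491). All 3 are known to need NF-kappaB or AP-1 in other settings. CXCL3, a further chemokine for neutrophils, CSF1, the growth factor of macrophages, PLAU, the urokinase protease, and its receptor PLAUR had folds between 0.325 for CXCL3 and 0.492 for CSF1. IL8, a chemokine with too few new counts to compare, was past 2-fold lower in whole RNA, with 12 counts at 2 h and 56 at 0 h, a fold of 0.201 (0.0981 to 0.380).

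AP-1 subunits and other immediate early genes were the second group with many lower members. Of 21 compared in new RNA, 10 were past 2-fold lower and none higher, with a median log2 fold of -0.92. In whole RNA 7 of 22 were lower and none higher, and their median was -0.54. IER2, an immediate early gene, had 10.2 CPM of new RNA at 2 h and 60.5 CPM at 0 h, a fold of 0.169 (0.130 to 0.216). JUN, a subunit of AP-1, had 15.8 CPM at 2 h and 68.2 CPM at 0 h, a fold of 0.232 (0.188 to 0.285). FOSL1, its Fos-family partner FRA-1, had 74.5 CPM at 2 h and 199 CPM at 0 h, a fold of 0.375 (0.339 to 0.415). None of these 3 genes was silent in treated cells. IER3, IER5L, JUND, KLF10, NR4A1, NR4A2 and NR4A3 had folds between 0.241 for NR4A3 and 0.478 for KLF10. FOS had 16 new counts at 2 h and 18 at 0 h and EGR1 had 4 at 2 h and 11 at 0 h, both under the minimum.

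NF-kappaB subunits and feedback inhibitors were split, with 3 of 16 past 2-fold higher and 2 lower in new RNA and a median log2 fold of -0.40. BIRC3, an inhibitor of apoptosis that NF-kappaB is known to induce, was on the higher side with NFKBIA and TNFAIP3, at 717 CPM of new RNA at 2 h and 245 CPM at 0 h, a fold of 2.93 (2.77 to 3.10). NFKBIE, a further inhibitor of NF-kappaB, was on the lower side with BCL3, at 48 new counts at 2 h and 108 at 0 h, a fold of 0.428 (0.298 to 0.607). So within the feedback inhibitors of the same pathway, members lay on both sides.

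Among the other genes with the lowest upper bounds of the fold in new RNA were an enzyme, a growth factor ligand, a binding protein and a kinase. CYP24A1, the enzyme that breaks down active vitamin D, had 356 CPM of new RNA at 2 h and 1374 CPM at 0 h, a fold of 0.259 (0.248 to 0.270). EREG, a ligand of the EGF receptor, had 164 CPM at 2 h and 645 CPM at 0 h, a fold of 0.254 (0.238 to 0.271). IGFBP3, which binds insulin-like growth factors, had 65.5 CPM at 2 h and 220 CPM at 0 h, a fold of 0.298 (0.268 to 0.330). PLK2, a kinase induced by serum and by p53, had 143 CPM at 2 h and 512 CPM at 0 h, a fold of 0.280 (0.261 to 0.300). Of 21 EGF receptor ligands and ERK feedback genes compared in new RNA, 2 were past 2-fold higher, ERRFI1 and SPRY1, and 2 lower, EREG and TGFA, with a median log2 fold of -0.20. Among 25 target and feedback genes of TGF-beta, YAP and BMP, 1 was higher and 4 lower in new RNA, with a median of -0.50. AJUBA, a LIM protein, PMEPA1, a feedback inhibitor of TGF-beta signalling, ID4, an inhibitor of DNA binding, and BMP4, a ligand, were the lower ones, with folds between 0.341 for AJUBA and 0.464 for PMEPA1. ANKRD1, a YAP target, was the higher one, at 194 CPM at 2 h and 90.2 CPM at 0 h, a fold of 2.15 (1.95 to 2.36). ENC1, an actin-binding protein, TRIML2, C6orf141, C14orf105 and FAM84B had folds between 0.165 for C14orf105 and 0.222 for ENC1. With equal weight for each cell the fold of C14orf105 was 0.269. The noncoding genes with the lowest upper bounds of the fold, beside RP11-108K3.1, which is described with the primer indices, were DENND5B-AS1, an antisense gene that cannot be told from its partner unless strand was counted, RP11-519G16.3, CTD-2020K17.1 and MIR31HG, with folds of 0.140, 0.275, 0.347 and 0.476.

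Regulators of mRNA decay had 2 of 15 members past 2-fold higher and none lower in new RNA, with a median log2 fold of -0.07. ZFP36, which binds AU-rich stretches in 3' untranslated regions and brings the mRNA to decay, had 189 CPM of new RNA at 2 h and 40.0 CPM at 0 h, a fold of 4.71 (4.14 to 5.37). ZC3H12A, an endonuclease of inflammatory mRNAs, had 34.9 CPM at 2 h and 12.3 CPM at 0 h, a fold of 2.84 (2.21 to 3.66). The core stretch that ZFP36 is known to bind, TATTTAT in DNA letters, was searched on the transcript strand in the last 500 bases of the 3' untranslated region, taking the transcript with the longest such region in GENCODE release 29. Overlapping matches were counted. It stood in 38 of 148 genes past 2-fold lower in new RNA with such a window (25.7%, 18.9 to 33.5), in 53 of 270 past 2-fold higher (19.6%, 15.1 to 24.9) and in 1483 of all 8953 protein-coding genes compared (16.6%, 15.8 to 17.4). In pre-existing RNA it stood in 7 of 24 windows of genes past 2-fold lower (29.2%, 12.6 to 51.1) and in 10 of 45 of genes past 2-fold higher (22.2%, 11.2 to 37.1). All genes compared there had 16.2% (15.5 to 17.0). In new and in pre-existing RNA the intervals of lower and higher genes overlap. Among the genes chosen for the lowest upper bounds of the fold and with such a window, 6 held it, EREG, IER3, IGFBP3, JUN, PLK2 and PTGS2. The other 9 held none in this window, BHLHE40, C14orf105, C6orf141, CYP24A1, ENC1, FAM84B, IER2, IER5L and IL11. Genes chosen for the highest lower bounds held the motif too, EDN3, PER1, SLC16A12 and SOX6 among them. These 5 sites are shown to place the motif in genes whose RNA was lower, with the 7 matched bases in capitals and coordinates on GRCh38, a different build from the hg19 of the submitters' processing notes; IER3 held 4 matches in its window and PLK2 held 2, of which the first is printed.
PLK2, chr5:58454066-58454094, minus strand: aataaacttttTATTTATtacagcccaaa
JUN, chr1:58780819-58780847, minus strand: ttgcttatgaaTATTTATaacagcattct
IER3, chr6:30743653-30743681, minus strand: ctcctaattaaTATTTATatgtatttatg
EREG, chr4:74388669-74388697, plus strand: ttattaattttTATTTATttttcttggga
PTGS2, chr1:186672150-186672178, minus strand: acagataatagTATTTATataaataattg
A match is a description of these letters and not of binding, and whether ZFP36 acted on these transcripts was not tested.

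Other programmes had few or no members past 2-fold. Of 30 S-phase genes none was past 2-fold in new RNA, with a median log2 fold of -0.06, and of 29 G2 and mitosis genes none was past 2-fold, with a median of -0.06. Cholesterol synthesis and uptake genes had none of 17 past 2-fold and a median of -0.18. Interferon response genes had none of 10 past 2-fold in new RNA and a median of -0.38. Stress programmes gave few members. Of 19 integrated stress response genes, CEBPB was higher and GDF15 and VLDLR lower, and GDF15, a stress-induced cytokine, had 10.1 CPM of new RNA at 2 h and 32.3 CPM at 0 h, a fold of 0.311 (0.236 to 0.407). Of 16 p53 targets, CDK inhibitors and D cyclins, CDKN1A and GADD45A were higher, with folds of 2.02 and 2.65, and PLK2 and BBC3 lower. Targets of NRF2, which is constantly active in this line, had 1 of 25 past 2-fold lower and a median log2 fold of -0.36 in new RNA but -0.04 in whole RNA. The 1 gene was FTL, ferritin light chain, with 892 CPM of new RNA at 2 h and 1943 CPM at 0 h, a fold of 0.459 (0.446 to 0.473), against a fold of 0.934 (0.928 to 0.940) in whole RNA. FTL has many processed pseudogenes, and its new share was 3.42% at 2 h and 7.16% at 0 h. Among heat shock genes, HSPB1 was higher and HSPA1A and HSPA1B lower in 14 compared. The HSPA1 pair are near-identical copies whose reads cannot be assigned with certainty, with folds of 0.419 and 0.427 in new RNA and 0.925 and 0.905 in whole RNA. The lower new share of exonic counts at 2 h, given above, moves in the same direction as these abundant, slowly renewed transcripts, and its part in their folds was not tested.

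**Figure D2:**
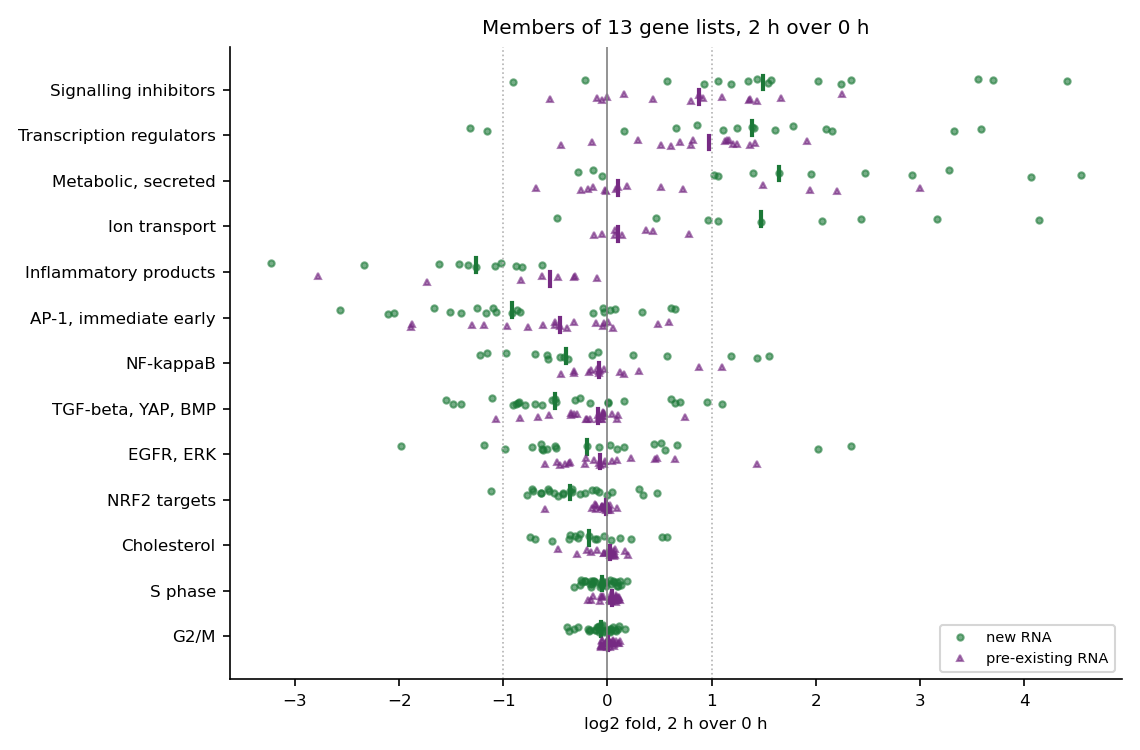
Log2 fold of 2 h over 0 h for members of 13 gene lists with at least 50 counts, in new RNA (green circles) and pre-existing RNA (purple triangles); vertical bars are list medians, the grey line is 0 and dotted lines mark 2-fold. The 4 lists of glucocorticoid-induced and ion transport genes have new RNA medians between 1.39 and 1.65, inflammatory products -1.26 and AP-1 with immediate early genes -0.92, while S-phase and G2/M genes stay near 0.

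Genes past 2-fold in new RNA mostly had a smaller fold in pre-existing RNA, which choosing them by new RNA favours in itself. Of the 384 genes past 2-fold higher in new RNA, 149 were also past 2-fold higher in whole RNA (38.8%) and 46 in pre-existing RNA (12.0%), and their median fold was 1.83 in whole and 1.27 in pre-existing RNA. Of the 232 past 2-fold lower in new RNA, 59 were so in whole RNA (25.4%) and 20 in pre-existing RNA (8.62%), with median folds of 0.658 and 0.881. Read the other way, 149 of the 222 genes higher in whole RNA (67.1%) and 46 of the 85 higher in pre-existing RNA (54.1%) were past 2-fold higher in new RNA, but only 152 of those 222 and 54 of those 85 had the 50 new counts needed to be compared. On the lower side it was 59 of the 108 genes lower in whole RNA (54.6%), of which 60 had enough new counts, and 20 of the 59 lower in pre-existing RNA (33.9%), of which 33 had enough. The 54 genes higher and 33 lower in pre-existing RNA with enough new counts had median folds of 3.24 and 0.404 in new RNA. Of 346 genes higher in new RNA and with enough pre-existing counts, 6 had a fold in pre-existing RNA above that in new RNA. Pre-existing RNA also holds any molecules made during the label that the call missed, in a number that the files do not give.

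The rise in whole RNA was made up mostly of counts called new. Over 55 genes past 2-fold higher in whole RNA that gained at least 0.5 counts per cell and had no more than 50% of their counts in 1 primer index, the share of the gain per cell that was called new ran from 58.3% to 88.6%, with a median of 82.1%. Over all 222 genes past 2-fold higher in whole RNA it ran from -11.7% to 109%, with a median of 76.1%. For the 19 of them with over 50% of their counts in 1 index the median was 2.13%. FGD4 gained 7.45 whole counts per cell, of which 6.13 were new (82.3%). ERRFI1 gained 7.70 whole counts per cell, of which 6.59 were new (85.5%). ANGPTL4 stood at the low end, with a gain of 2.30 whole counts per cell, of which 1.34 were new (58.3%). In the part of a gain not called new, molecules missed by the call and older molecules were not told apart. For FGD4 that part showed as pre-existing RNA at 62.7 CPM at 2 h and 7.84 CPM at 0 h, a fold of 8.00 (6.93 to 9.28). Label and drug covered the same 2 h, so older molecules in treated cells date from before the drug. FGD4 had 653 whole counts at 0 h and 9529 at 2 h. How much of its pre-existing RNA at 2 h was older was not tested.

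Among genes lower in new RNA, pre-existing RNA was lower too where most of a gene's counts at 0 h were new. Molecules made during the label but missed by the call count as pre-existing, so whether older molecules fell cannot be told from these values. For 128 genes past 2-fold lower in new RNA whose new share at 0 h was under 50%, the median fold in pre-existing RNA was 0.940, and 2 of them were past 2-fold lower there. For 78 such genes with a new share of 50% or more, the median was 0.666 and 18 were past 2-fold lower. CYP24A1 and PLK2 differed in this way. CYP24A1, with 39.8% of its counts new at 0 h, had 13939 counts of pre-existing RNA at 2 h and 14561 at 0 h, a fold of 0.892 (0.872 to 0.913), beside a fold of 0.259 in new RNA. PLK2, with 79.5% new at 0 h, had 10.5 CPM of pre-existing RNA at 2 h and 34.9 CPM at 0 h, a fold of 0.302 (0.265 to 0.345), close to its 0.280 in new RNA. IGFBP3, with 11.8% new at 0 h, had a fold of 0.892 in pre-existing and 0.827 in whole RNA, far from the 0.298 in new RNA. JUN, IER5L and GDF15, with 73.4%, 63.0% and 68.1% new at 0 h, had folds of 0.269, 0.406 and 0.246 in pre-existing RNA, and with equal weight for each cell that of GDF15 was 0.162. On the higher side, S100P had 49.2 CPM of pre-existing RNA at 2 h and 45.5 CPM at 0 h and CKB had 48.3 CPM at 2 h and 42.7 CPM at 0 h, so folds of 9.64 and 12.5 in new RNA came to 1.35 and 1.42 in whole RNA.

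**Figure D3:**
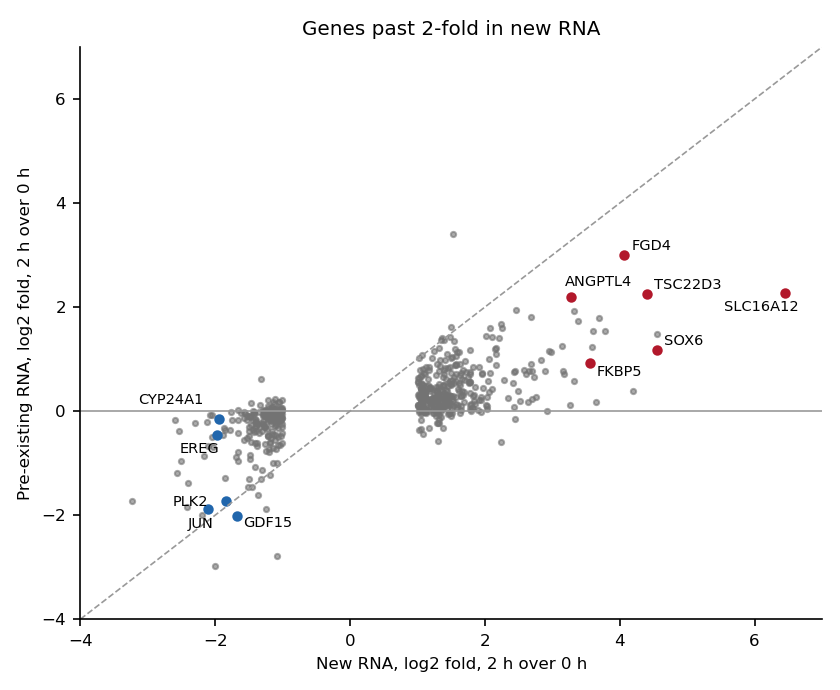
Log2 fold of 2 h over 0 h in new RNA (horizontal) and in pre-existing RNA (vertical), one point for each gene past 2-fold in new RNA with at least 50 counts of both kinds; the dashed line marks equal folds, and named genes are red where higher and blue where lower. Most points lie between the dashed line and 0: CYP24A1 sits near 0 in pre-existing RNA while PLK2, JUN and GDF15 sit close to the line, and SOX6 rests on cells of 1 primer index.

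Cells were tagged in groups by a 10-base index on the reverse transcription primer, 63 indices in each culture and none shared, which gives a spread within each culture, though not one between cultures. An index held 9 to 32 cells at 2 h and 8 to 29 cells at 0 h. FGD4 ran from 577 to 1527 CPM of new RNA over the indices at 2 h and from 0 to 123 CPM at 0 h. CYP24A1 ran from 115 to 897 CPM at 2 h and from 1094 to 2163 CPM at 0 h. For both genes no index of one culture reached the range of the other. FKBP5 ran from 379 to 1077 CPM at 2 h and from 0 to 154 CPM at 0 h, and EREG from 62.5 to 392 CPM at 2 h and from 395 to 1004 CPM at 0 h, again without overlap. TSC22D3, PER1, ANGPTL4, PLK2 and IER3 overlapped between cultures. IER3 ran from 54.4 to 463 CPM at 2 h and from 203 to 1500 CPM at 0 h. Its highest index at 2 h was thus above the median index at 0 h, 407 CPM.

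Some large folds came from the cells of 1 index. In new RNA 3 of the 384 higher genes and 4 of the 232 lower genes had over 50% of the counts of their higher culture in 1 index, against 19 of 222 and 13 of 108 in whole RNA and 18 of 85 and 15 of 59 in pre-existing RNA. SOX6, a transcription factor, had 804 new counts at 2 h and 33 at 0 h, a fold of 23.5, but 94.3% of its counts at 2 h were in 1 index, and without the top index of each culture the fold was 1.53. S100Z had 1096 whole counts at 2 h and 32 at 0 h, a fold of 32.1, with 80.2% in 1 index at 2 h, a new share of 1.28% at 2 h, and a fold of 6.79 without the top index of each culture. GSTM5 and DNAH9 had 96.1% and 87.5% of their whole counts at 2 h in 1 index, and their folds of 16.1 and 8.55 became 0.804 and 1.15 without it. So the folds of GSTM5 and DNAH9 rested on the cells of 1 tag, while S100Z was still past 2-fold without its top index. On the lower side, ACTL6B and ARMC4 had 94.0% and 84.0% of their whole counts at 0 h in 1 index, with folds of 0.0339 and 0.184 that became 0.469 and 1.08 without it. The noncoding gene RP11-108K3.1 had 81.5% of its 54 new counts at 0 h in 1 index, and its fold of 0.250 became 1.16. ZNF804A had 66 of its 88 new counts at 0 h in 1 index, and its fold of 0.186 became 0.569. In pre-existing RNA GALNTL5, LGI2 and TSPAN8 had 87.5%, 76.8% and 80.3% of the counts at 2 h in 1 index, and their folds of 16.8, 11.5 and 5.35 became 2.80, 3.06 and 1.21 without it. PTGS2 had 57.3% of its 321 pre-existing counts at 0 h in 1 index, and its fold there of 0.145 became 0.272 without it and 0.371 without the tenth of cells with the fewest whole counts, whereas in new RNA its fold was 0.472 with and 0.479 without the top index. IFIT1, an interferon response gene past 2-fold higher in whole RNA at 3.47, had 48 of its 74 counts at 2 h in 1 cell, and its fold was 1.36 without the top cell of each culture. Without the top index, 378 of the 384 higher and 224 of the 232 lower genes in new RNA were still past 2-fold, against 71 of 85 and 40 of 59 in pre-existing RNA.

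**Figure D4:**
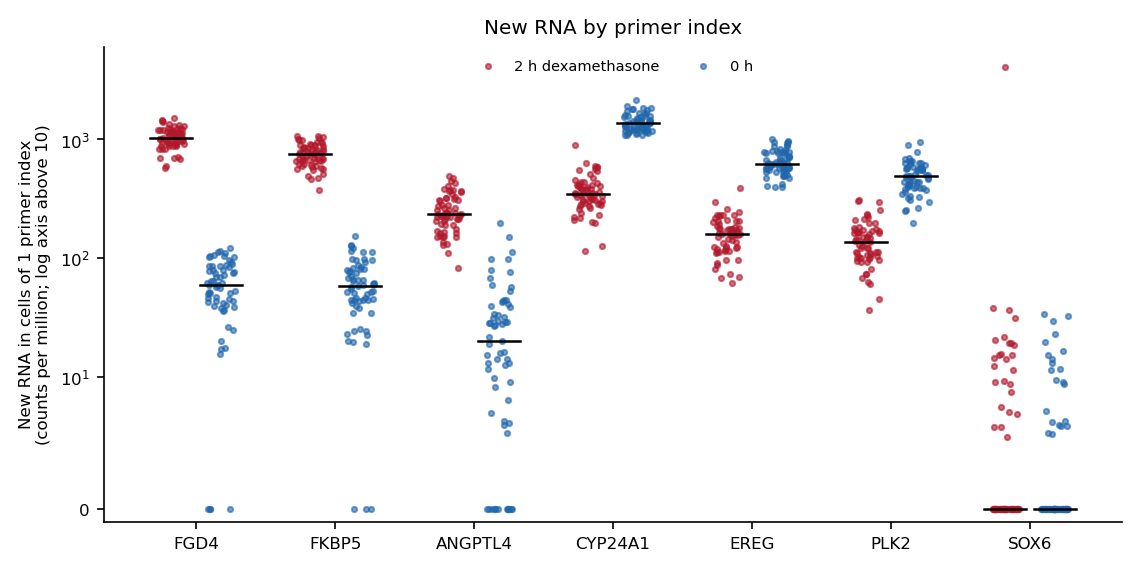
New RNA of 7 genes in the cells of each of the 63 primer indices of a culture, in CPM (linear from 0 to 10, log above); red points are indices of the 2 h culture, blue points of the 0 h culture, and black bars their medians. FGD4, FKBP5, CYP24A1 and EREG do not overlap between cultures, while SOX6 has 1 index at 4054 CPM at 2 h and every other index at or below 38.4 CPM.

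Most treated cells carried more new RNA of these targets than cells at 0 h did. Cells were thinned to 2000 new counts each, which kept 1150 of 1189 cells at 2 h and 1081 of 1151 at 0 h. New counts were summed over the 64 listed targets among signalling genes, transcription regulators and metabolic genes. Because these lists were chosen with earlier results of these data known, the sum describes the cultures and is not independent support for a response. The median cell had 19 such counts at 2 h (quartiles 15 and 25) and 7 at 0 h (5 and 10). At 2 h 78.4% of cells (75.9 to 80.8) lay above 14 counts, the 95th percentile of cells at 0 h, and at 0 h 3.24% did (2.27 to 4.47). Thinned to 1000 new counts, the shares were 62.6% at 2 h and 4.57% at 0 h, so the share depends on depth and is not a count of responding cells. FGD4 had a new count in 75.3% of thinned cells at 2 h (72.7 to 77.8) and 11.4% at 0 h (9.55 to 13.4), and without thinning the 0 h share was 26.2%. TSC22D3 had one in 25.1% at 2 h (22.6 to 27.7) and 1.39% at 0 h (0.779 to 2.28). No second cell type was in this sample to give the share of cells with a stray count.

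**Figure D5:**
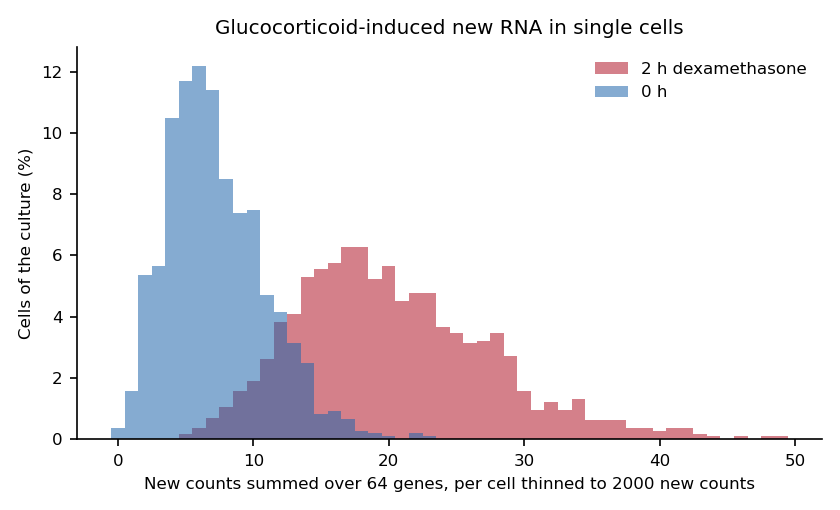
Share of cells of each culture (vertical, percent) by the number of new counts summed over 64 glucocorticoid-induced genes (horizontal) after each cell was thinned to 2000 new counts; red bars are the 2 h culture, blue bars the 0 h culture, and purple marks overlap. The median is 19 counts at 2 h and 7 at 0 h, and both distributions have a single peak.

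In the later cultures of the same time course, which had the same length of label, the 7 genes given here took different courses. Each series below gives new RNA in CPM at 0, 2, 4, 6, 8 and 10 h. FGD4 had 63.6, 1067, 1238, 1138, 1078 and 1095. RASD1 had 0.429, 10.6, 15.5, 4.32, 4.52 and 0.467, so its last value was near its first. NR1D2, a repressor in the clock, had 53.8, 136, 123, 70.5, 58.9 and 46.1. ANKRD1 was higher at each later time, with 90.2, 194, 348, 557, 683 and 790. Lower genes also differed among themselves. IL11 stayed low, with 37.5, 4.00, 1.19, 0.514, 0.798 and 0.817. PTGS2, by contrast, had 61.9, 29.2, 29.5, 40.7, 50.0 and 68.1. BMP4 had 16.2, 6.06, 19.1, 23.3, 24.1 and 29.7, so it was below its 0 h value at 2 h alone. These are single cultures at each time, and no difference between times was tested.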

How the data were processed

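Single-cell RNA of A549 cells was analysed from the counts per gene and cell that the authors deposited, 1 matrix of all molecules (whole) and 1 of molecules they called newly synthesised. Per the submitters' processing notes, STAR 2.5.2b, Trim Galore 0.4.1, Picard 1.105 and SAMtools 1.3 were used with the hg19 and mm10 builds. Settings, duplicate collapse, strand and the calling of new molecules: not given in the sources used here. No unlabelled A549 cells were analysed here, so the background of that call is unknown. The deposited cell annotation gave the treatment time, exon and intron counts and the authors' doublet score, whose highest value was 0.180 at 2 h and 0.171 at 0 h; no cell was removed on it in the main results. Within each gene and cell the new count was never above the whole count, and pre-existing counts were computed as whole minus new.

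Counts were summed over the 1189 cells at 2 h and the 1151 cells at 0 h and scaled to counts per 1000000 (CPM) of each culture and kind of RNA. Folds carry exact conditional 95% intervals and shares Clopper-Pearson intervals (SciPy 1.17.1, Python 3.11.15). PCR duplicates and differences between cultures are not covered by them. TMM factors (edgeR 4.0.16) and median-of-ratio factors (DESeq2 1.42.0, R 4.3.3) served as alternative scalings, with no test. The steps were tested on simulated data.

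Named genes were the protein-coding genes with at least 50 counts and the highest lower bounds (20 in new RNA, 10 in whole and pre-existing RNA) or lowest upper bounds (15 and 10) of the fold, 5 noncoding genes each way in new RNA, list members past 2-fold, NR3C1, and single list members as examples. The members, lists and rules were chosen with earlier results of these data known. The removal of single primer indices or cells and the search for a 3' untranslated motif were added after the values were seen. GENCODE release 29 gave the sequences, matched by gene identifier. The list symbols ORM2, TNF and PECAM1 were not analysed here. The values of 1 further list member are not reported here.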

Additional observations from a re-analysis of the deposited data

How the results depend on the processing

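No paired analysis was possible because there was 1 culture a side, and no replicate could be left out. The count of genes past 2-fold depended on the minimum count. With at least 20 counts, 648 genes were higher and 442 lower in new RNA, 494 and 297 in whole RNA, and 260 and 252 in pre-existing RNA. With at least 200 counts, 228 were higher and 101 lower in new RNA, 117 and 36 in whole RNA, and 37 and 11 in pre-existing RNA. With no minimum, 4238 were higher and 4634 lower in new RNA, 4247 and 4836 in whole RNA, and 3900 and 4840 in pre-existing RNA, most of them genes of a few counts. Under every other alternative run, each of the 6 counts stayed within 1.5 times its main value. TMM factors gave 442 higher and 194 lower genes in new RNA, median-of-ratio factors 443 and 193, scaling new counts by whole totals 363 and 261, and requiring the whole interval past 1.5-fold 431 and 265. Without the top index of each gene, the fold of RP11-108K3.1 was 1.16 in new, 1.27 in whole and 1.29 in pre-existing RNA, that of ARMC4 1.08 in whole RNA, that of GSTM5 0.804 in whole and 0.559 in pre-existing RNA, and that of SOX6 0.988 in pre-existing RNA, all on the other side of 1. No other setting turned a gene's direction among those named. With 1 culture a side, depth limits counting error only: the spread between cultures is unknown.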

Other observations

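Some list members had fewer than 50 new counts, and their values stand in whole RNA. ALOX5AP, the partner protein of 5-lipoxygenase, had 52 whole counts at 2 h and 16 at 0 h, a fold of 3.05 (1.71 to 5.72). TXNIP, an inhibitor of thioredoxin and of glucose uptake, had 49 at 2 h and 9 at 0 h, a fold of 5.11 (2.48 to 11.8). DUSP8, a phosphatase of MAP kinases, had 19 at 2 h and 50 at 0 h, a fold of 0.357 (0.199 to 0.616). The phosphatase DUSP1, higher at 2 h, and DUSP8, lower at 2 h, act on the same kinases. RND1, a GTPase that loosens the actin cytoskeleton, had 23 whole counts at 2 h and 115 at 0 h, a fold of 0.188 (0.114 to 0.296), and a fold of 0.235 (0.137 to 0.387) in new RNA. Of the new exonic and intronic counts, 50.2% were intronic at 2 h and 46.2% at 0 h.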
